A study of Mus musculus with 6 samples.

Results

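The genes described here encode the proteins of the cytosolic ribosome. They were chosen by name and biotype, as protein-coding genes whose symbol begins with Rpl or Rps followed by a digit, p0, p1, p2, or a, without the S6 kinase genes and Rps27l. The rule gave 85 of the 21269 genes in the table, of which 31 encode proteins of the small (40S) subunit and 46 proteins of the large (60S) subunit. A further 7 are paralogs or retrogene copies (Rpl3l, Rpl22l1, Rpl7l1, Rpl10-ps3, Rps23rg1, Rps27rt, and Rpl36al). The remaining gene, Rps19bp1, carries the name but encodes a regulator of the deacetylase SIRT1 that binds a ribosomal protein.

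The cytosolic ribosome is built from ribosomal RNA and a nearly fixed set of proteins, each needed in about equal number. Growing cells hold the mRNAs of these proteins at high levels. Most of these mRNAs begin with a cytosine followed by a run of pyrimidines, the terminal oligopyrimidine tract. The growth kinase mTORC1 controls the translation of such mRNAs through this tract and the binding protein LARP1, so that production of the ribosome can change without a change in mRNA level. In the heart, growth of cardiomyocytes goes along with the making of more ribosomes. Ribosomal protein mRNAs are also common reference genes, and the study used Rplp0 as the reference of its RT-qPCR.

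RNA was sequenced from HL-1 cells, a line of mouse atrial cardiomyocytes, transfected with 50 nM of a gapmer. Gapmers are short strands of DNA flanked by locked nucleic acid (LNA), and the RNA they pair with is cut by RNase H. The LNA Control group received a control gapmer, and the LNA Malat1 group received one against Malat1, a long noncoding RNA of the nucleus. Both groups grew in Claycomb medium with serum and norepinephrine. In both groups transfection followed 24 hours after seeding, RNA was taken 48 hours later, and each group has 3 libraries.

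All libraries come from 1 cell line, and nothing in the labels or methods says that the 3 libraries of a group came from separate cultures, so the p-values measure only the spread between these libraries. The values are counts per gene that the authors scaled by 1 factor per library and rounded, called normalized counts here. The reads on genes recovered from the steps that rounding leaves numbered between 4513000 and 5593000 per library. Malat1 was at 5051, 5197, and 4369 normalized counts in the LNA Control libraries (the controls below) and at 2833, 2792, and 2732 with LNA Malat1, which is 57.2% of the control mean. LNA Malat1 replicates 1 and 3 were the closest pair and were counted as 1 sample in mean ± SD, since over the 14522 genes compared they differed by less than the sampling noise (chi-square 0.949 per gene, p = 1.0). Among the 1754 of these genes with the most reads they differed by slightly more than it (chi-square test, 1.095 per gene, p = 0.0031). Replicates 1 and 2 of that group gave 1.012 per gene over 14308 genes (chi-square test, p = 0.15) and 1.665 over the 1612 with the most reads (p = 1.2e-56). Replicates 2 and 3 gave 1.163 per gene. The control libraries differed more, by 2.094 (replicates 1 and 2), 4.179 (1 and 3), and 1.768 per gene (2 and 3). Controls 1 and 3 gave 14.953 over the 1750 genes with the most reads. Of 15 cardiomyocyte markers, 14 were read here. Myh6 and Myh7 were at 0 to 7 in every library, Myl7 at 18 to 32, and Myl4 at 30 to 49, whereas Tnnt2, Ryr2, and Ttn were at 647 or above. The summed cardiomyocyte markers were at 14198 to 18032 in the controls and at 20380 to 21791 with LNA Malat1, with Ttn holding most of the sum. Of the 11 tested, 3 rose (Actn2, Ttn, and Tnnt2) and 3 fell (Gata4, Tbx5, and Pln) past an adjusted p of 0.05 in limma. That is 54.5%, against 28.3% of all genes tested. The 4 fibroblast markers read summed to 4329 to 5079 and 3845 to 4017, and Col1a2 was at 0 or 1. Col1a1 was at 1905 to 2486 and 1794 to 1922, and Col3a1 at 2376 to 2650 and 1952 to 2060. Col3a1 fell (log2 fold change -0.33, adjusted p = 0.0014, limma), while Col1a1 (-0.23) and Pdgfra (-0.42) did not pass. The 3 endothelial markers summed to 22 to 31 and 36 to 37, and the 2 macrophage markers, Cd68 and Csf1r, to 32 to 36 and 54 to 81. Neither of the 2 endothelial markers tested passed. At these low counts Cd68 (log2 fold change 0.79, adjusted p = 0.023, limma) and Csf1r (1.19, adjusted p = 0.013, limma) both rose, where 14.3% of all genes tested rose past the threshold. Ptprc and Adgre1, which define leukocytes and macrophages, were not analysed here. The part of these markers in the values that follow was not tested. In bulk RNA, fewer cells of a type and less RNA per cell cannot be told apart.

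The annotated starts of the genes are shown first, since the tract at the start is the feature these mRNAs are known for. RefSeq (GRCm38.p6) gives a promoter for 64 of the 85 genes, reaching from 250 bases before the start to 50 bases from it on. In 20 of these 64 genes (31.2%) an annotated start lay within an unbroken run of at least 7 pyrimidines. The same held for 618 of the 9823 protein-coding genes tested that have an entry (6.29%) and for 1682 of all 27025 genes (6.22%). A run elsewhere near the start does not count here, so an annotated start a few bases away from the used one hides a tract. The 9 windows below hold 10 bases before the start and 20 from it on, written 5′ to 3′ on the gene's own strand, with the run over the start in capitals. They are those of Rps24, Rps6, Rpl28, Rpl35, Rps10, Rplp2, Rps27, and Rps18, whose values are given further on, and of the reference gene Rplp0, which has no run there.
Rps24 (chr14:24490668-24490697, plus strand): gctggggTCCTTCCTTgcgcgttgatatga
Rps6 (chr4:86857348-86857377, minus strand): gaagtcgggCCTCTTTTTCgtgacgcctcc
Rpl28 (chr7:4792955-4792984, plus strand): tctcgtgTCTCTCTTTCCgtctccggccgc
Rpl35 (chr2:39005112-39005141, minus strand): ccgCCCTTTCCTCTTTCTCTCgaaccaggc
Rps10 (chr17:27635225-27635254, minus strand): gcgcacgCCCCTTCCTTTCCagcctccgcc
Rplp2 (chr7:141447641-141447670, plus strand): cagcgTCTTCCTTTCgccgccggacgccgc
Rps27 (chr3:90213629-90213658, minus strand): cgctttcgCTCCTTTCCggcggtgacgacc
Rps18 (chr17:33955646-33955675, minus strand): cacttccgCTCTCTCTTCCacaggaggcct
Rplp0 (chr5:115559457-115559486, plus strand): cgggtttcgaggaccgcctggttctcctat

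The levels of the 77 subunit genes differed widely although the proteins are needed in about equal number. Per kilobase of the main mRNA, the normalized counts averaged over the 6 libraries were as low as 23.6 for Rpl24 and as high as 617.4 for Rpl4 and 577.3 for Rpl8. The median over all 85 genes was 159.7 per kilobase, against 81.6 for the protein-coding genes tested, a ratio of 1.96. The mRNAs were short, with a median length of 886 bases against 3113, so that the counts themselves were ordinary, with a median of 152.5 for the 83 tested genes against 147.1 for all genes tested.

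These levels rest on the part of each mRNA that reads can be assigned to. The authors left out reads that aligned to several regions, and ribosomal protein genes have many processed copies in the genome. Over the 85 genes, a median of 43.6% of the 75-base stretches of the main mRNA (75 bases is the read length) occurred exactly in a transcript of another annotated gene. The share was 50% or more in 38 genes and 90% or more in 5 (Rps27, Rpl5, Rpl9, Rpl10-ps3, and Rps27rt). Rps3, Rpl3l, and Rps19bp1 were among those that shared none. Rpl24, the lowest of the subunit genes per kilobase, shared 80.9% of its stretches, and Rpl4 shared 8.47%. Other genes went the other way, as Rpl10a shared 87.6% at 319.4 per kilobase and Rps15a 4.13% at 41.2. The main mRNA taken for Rps15a has 5179 bases, against a median of 886. The part of sharing and of mRNA length in these levels was not tested. Differences in level between these genes are therefore uncertain, whereas each gene is compared between the groups over the same sequence.

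The main question of the comparison is whether silencing Malat1 went along with a change of these mRNAs. Of the 83 tested genes, 2 passed an adjusted p of 0.05, or 2.41%, against a background of 28.3% of the 15650 genes tested (limma, Benjamini-Hochberg adjustment over all genes). Both, Rps24 among them, were higher in LNA Malat1, where 14.3% of all genes passed in that direction and 14.0% in the other. None reached the fold change of at least 1.5 that the study's methods also ask for, against 10.9% of all genes. At an unadjusted p under 0.05, 5 genes passed (6.02%, against 39.8%), and all 5 were higher, among them Rps24, Rps25, Rpl28, and Rpl35. Rpl3l, the muscle paralog of Rpl3, and Rps27rt, a retrogene of Rps27, were under the mean of 5 needed for testing.

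The log2 fold changes of the 83 genes centred near 0, with a median of 0.02, quartiles of -0.07 and 0.11, and a range from -0.24 (Rpl10-ps3) to 0.48 (Rps23rg1). The median over all genes tested was also 0.02, with quartiles of -0.15 and 0.27. The sign was positive in 46 genes and negative in 37. The spread of the log2 fold changes, as a standard deviation over genes, was 0.13 here, 0.51 over all genes, and 0.32 over the 9460 genes with a mean from 50 to below 1000. In that range 3035 genes passed the adjusted p, or 32.1%, against 2 of the 72 ribosomal protein genes that lie in it. Among the 670 protein-coding genes of that range whose mRNA length lay between the quartiles of the ribosomal protein genes (657 and 1242 bases), 100 passed (14.9%). The groups did not overlap in 10 of the 83 genes (12.0%), against 41.3% of all genes and 45.9% in the range of means from 50 to below 1000. Among the 670 genes of like mean and mRNA length it was 33.0%.

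**Figure D1:**
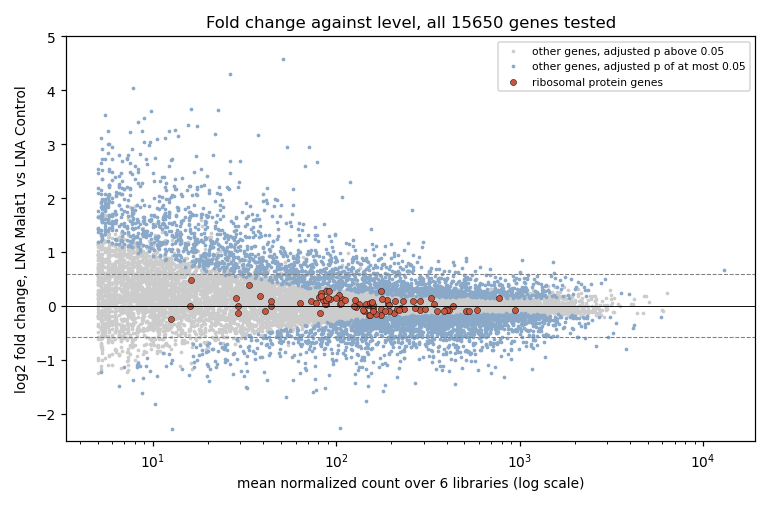
Log2 fold change of LNA Malat1 over LNA Control (vertical) against the mean normalized count over 6 libraries (horizontal, log scale) for the 15650 genes tested, 1 point per gene, with dashed lines at a 1.5-fold change. The 83 ribosomal protein genes (red) lie between -0.24 and 0.48, while other genes of like level reach well beyond the dashed lines.

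A p that misses the threshold does not show that a level stayed the same, so the 95% intervals of the fold changes were also read. In 76 of the 83 genes (91.6%) the whole interval lay within a 1.5-fold change in either direction, that is between -0.58 and 0.58 on the log2 scale. The share was 58.9% over all genes and 83.2% over the genes with a mean from 50 to below 1000. It was 89.6% over the 670 protein-coding genes of that range with like mRNA length. Among the lists read below it was 93.5% for the mitochondrial ribosome and 98.6% for genes for making ribosomes. For the mTORC1, LARP1, and MYC regulators it was 87.5%. Intervals this narrow were thus not particular to the ribosomal protein genes. For the 57 ribosomal protein genes with a mean of at least 100, every interval lay inside this limit, and the bound farthest from 0 was 0.43, a 1.35-fold change. The 7 genes with wider intervals were Rpl23a, Rpl24, Rpl36, and Rpl36a of the large subunit and the copies Rpl10-ps3, Rpl36al, and Rps23rg1, with means from 12.5 to 91.7. The median standard error was 0.09, against 0.07 for the genes with a mean from 50 to below 1000.

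**Figure D2:**
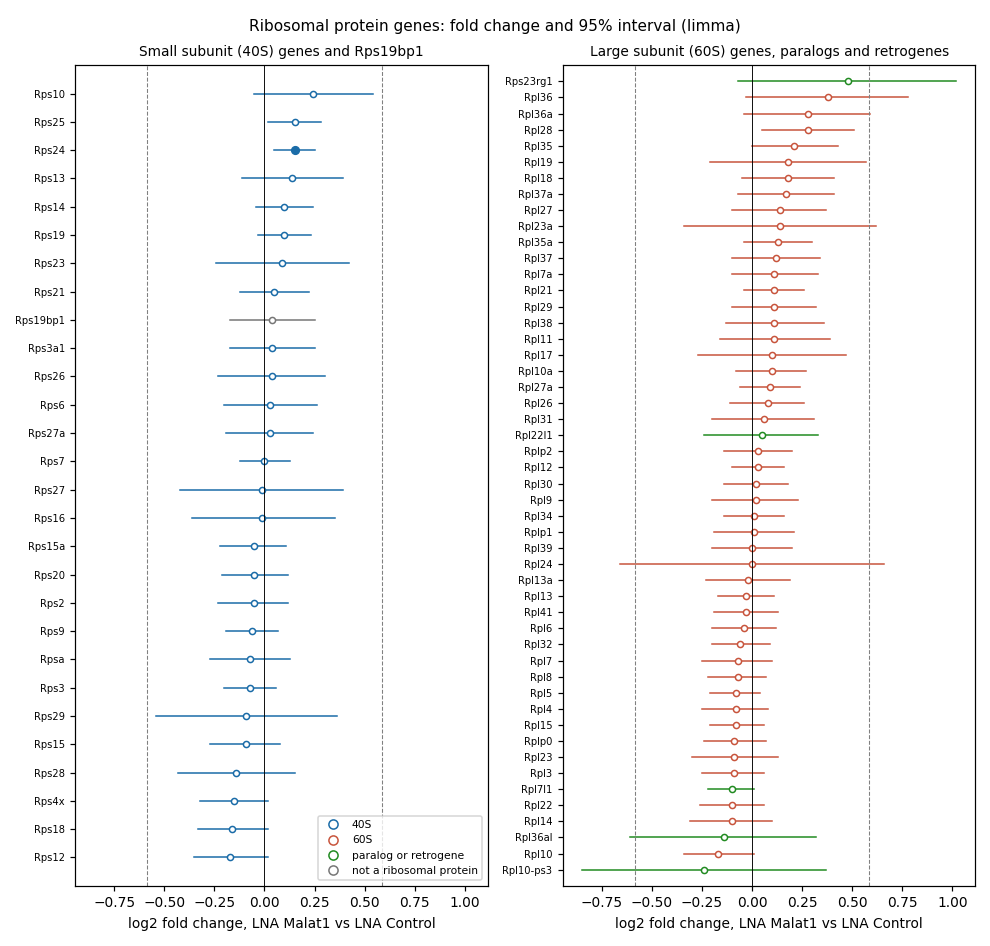
Log2 fold change (circle) and 95% interval (line) of LNA Malat1 over LNA Control from limma with 3 libraries per group, for 78 of the 83 tested genes, with 40S genes and Rps19bp1 on the left and 60S genes, paralogs, and retrogenes on the right. The filled circle marks Rps24, which passed an adjusted p of 0.05, and the dashed lines mark a 1.5-fold change.

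Both genes that passed encode proteins of the small subunit. Rps24 encodes eS24, which is needed for the processing of the precursor of the small subunit RNA, and is mutated in Diamond-Blackfan anemia. It was at 726, 736, and 723 normalized counts in the controls, against 827, 793, and 805 with LNA Malat1. Every LNA Malat1 library lay above every control library. The means were 728.3 ± 6.8 (SD, n = 3) and 804.5 ± 16.3 (SD, n = 2), so that the log2 fold change was 0.15 (SE 0.05, adjusted p = 0.035, limma). Taking LNA Malat1 replicates 1 and 3 together as a single sample, the adjusted p was 0.10 (limma), with median-of-ratios scaling it was 0.074, and after leaving out LNA Control replicate 2 or LNA Malat1 replicate 1, 2, or 3 it was 0.072, 0.14, 0.07, and 0.095.

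The number of the 83 genes higher past the threshold fell from 2 to 0 on leaving out LNA Control replicate 2, LNA Malat1 replicate 1, or LNA Malat1 replicate 2. On leaving out LNA Control replicate 3, 3 genes passed with lower levels, among them Rpl22 and Rpl4. Without the number over all genes in these settings, such shifts cannot be read as particular to the ribosomal protein genes. Rps24 shared 13.7% of its stretches with other genes.

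The small subunit genes that did not pass had log2 fold changes from -0.17 (Rps12) to 0.24 (Rps10). Over the 31 genes the median log2 fold change was -0.01, 15 were positive and 16 negative, and all 31 intervals lay within a 1.5-fold change. Rps25, whose product binds the initiation sites of some viral RNAs, was at 307, 324, and 301 in the controls, against 341, 363, and 332 with LNA Malat1, and the log2 fold change of 0.15 missed the threshold (adjusted p = 0.081, limma). It passed with quantile normalization and with library totals set equal. Rps10 was at 74, 75, and 77 in the controls, against 102, 97, and 72 with LNA Malat1. LNA Malat1 replicate 3 lay below all controls and the other 2 above them, and the log2 fold change of 0.24 did not pass (adjusted p = 0.20, limma). Without LNA Malat1 replicate 3 it was 0.40 and passed (adjusted p = 0.039, limma).

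At the lower end of the small subunit stood Rps12, Rps18, and Rps4x. Rps18, a protein of the head of the subunit, was at 167, 156, and 153 in the controls, against 135, 149, and 142 with LNA Malat1. The groups did not overlap, but the log2 fold change of -0.16 did not pass (adjusted p = 0.16, limma). Rps12 had a log2 fold change of -0.17, and Rps4x of -0.15, and in both genes the groups overlapped.

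Rps6, the protein that S6 kinase phosphorylates downstream of mTORC1, was at 94, 111, and 107 normalized counts in the controls, against 116, 103, and 99 with LNA Malat1. The groups overlapped, with a log2 fold change of 0.03 and a 95% interval from -0.20 to 0.26. Rps27a, a fusion of ubiquitin with a ribosomal protein and one source of the ubiquitin of the cell, was at 88, 89, and 84 and at 91, 86, and 89 (log2 fold change 0.03). Rpsa, known also as the laminin receptor, was at 152, 142, and 135 and at 126, 134, and 149 (log2 fold change -0.07). Neither separated the groups. Further small subunit genes had log2 fold changes from -0.14 (Rps28) to 0.14 (Rps13). They are Rps2, Rps3, Rps3a1, Rps7, Rps9, Rps13, Rps14, Rps15, Rps15a, Rps16, Rps19, Rps20, Rps21, Rps23, Rps26, Rps27, Rps28, and Rps29, and none of them separated the groups.

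In the large subunit none of the 46 genes passed, and the median log2 fold change was 0.03 with 28 positive and 18 negative. The interval lay within a 1.5-fold change in 42 of them. Rpl28 was at 83, 77, and 77 normalized counts in the controls, against 102, 97, and 89 with LNA Malat1, without overlap. Its log2 fold change of 0.28 missed the threshold (adjusted p = 0.069, limma) and passed with library totals set equal. Rpl35, a protein at the exit of the peptide tunnel, was at 87, 101, and 99 and at 113, 113, and 107, also without overlap (log2 fold change 0.21, adjusted p = 0.12, limma). Rpl36 was at 26, 28, and 33 and at 36, 34, and 44, with a log2 fold change of 0.38, the largest of the large subunit, and an interval from -0.03 to 0.78. Rpl18, at 80, 73, and 80 and at 85, 89, and 91, was the last gene of the large subunit whose groups did not overlap.

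Rpl10, which closes the assembly of the large subunit, had the lowest log2 fold change among the 46 genes, -0.17 (adjusted p = 0.14, limma). It was at 193, 177, and 186 in the controls, against 178, 165, and 153 with LNA Malat1. The highest LNA Malat1 library lay above the lowest control. Rpl4, which had the highest mean of all 85 genes (949.5), was at 1030, 1045, and 857 in the controls, against 940, 967, and 858 with LNA Malat1. The third control library and the third LNA Malat1 library were equally low, and the log2 fold change was -0.08. Rpl8, with a mean of 588.8, was likewise lowest in the replicates numbered 3, at 622, 644, and 547 in the controls, against 591, 588, and 541 with LNA Malat1.

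Rpl5 and Rpl11 bind the RNA of the large subunit's central protuberance and, when free, bind and block MDM2. Rpl5 was at 424, 415, and 406 normalized counts in the controls, against 409, 395, and 372 with LNA Malat1 (log2 fold change -0.08, 95% interval from -0.21 to 0.04). Rpl11 was at 89, 70, and 94 and at 96, 86, and 90 (log2 fold change 0.11, 95% interval from -0.16 to 0.39). The groups overlapped in both genes. Further large subunit genes, Rpl3, Rpl6, Rpl7, Rpl7a, Rpl9, Rpl10a, Rpl12, Rpl13, Rpl13a, Rpl14, Rpl15, Rpl17, Rpl19, Rpl21, Rpl22, Rpl23, Rpl23a, Rpl24, Rpl26, Rpl27, Rpl27a, Rpl29, Rpl30, Rpl31, Rpl32, Rpl34, Rpl35a, Rpl36a, Rpl37, Rpl37a, Rpl38, Rpl39, Rpl41, Rplp0, Rplp1, and Rplp2, had log2 fold changes from -0.10 to 0.28 and overlapping groups.

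The P-stalk is the arm of the large subunit that recruits elongation factors, with Rplp0 as its base and pairs of Rplp1 and Rplp2 bound to it beside Rpl12. Rplp0, the reference gene of the study's RT-qPCR, was at 415, 424, and 359 normalized counts in the controls, against 384, 390, and 353 with LNA Malat1. The means were 399.3 ± 35.2 (SD, n = 3) and 379.2 ± 15.2 (SD, n = 2), and the groups overlapped (log2 fold change -0.09, SE 0.07, 95% interval from -0.24 to 0.07, adjusted p = 0.40, limma). Rplp1 was at 159, 157, and 132 and at 147, 159, and 143, and Rplp2 was at 199, 199, and 171 and at 200, 188, and 191. Their log2 fold changes were 0.01 and 0.03, and that of Rpl12 was 0.03, with libraries at 340, 339, and 338 and at 344, 365, and 330.

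Divided by Rplp0 in the same library, Malat1 was at 12.17, 12.26, and 12.17 in the controls, against 7.38, 7.16, and 7.74 with LNA Malat1. The ratio in LNA Malat1 was 60.3% of that in the control. Relative to the sum of all 85 genes Malat1 was at 57.0%, and by the deposited values alone at 57.2%.

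Paralogs and copies were set beside their parent genes. Rpl22 was at 393, 379, and 326 in the controls, against 338, 355, and 328 with LNA Malat1 (log2 fold change -0.10), and its paralog Rpl22l1, which can take its place in the ribosome, at 59, 64, and 65 and at 74, 58, and 63 (0.05). Neither pair of groups separated. Rpl3 was at 202, 207, and 193 and at 197, 179, and 188 (-0.09), while Rpl3l, the form of striated muscle, was at 1, 3, and 0 and at 3, 3, and 1, so that these cells held almost none of it. Rpl36a was at 78, 67, and 106 and at 97, 101, and 101 (0.28), and Rpl36al at 34, 31, and 26 and at 31, 31, and 21 (-0.14).

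The third control library of Rpl36a was the highest of all 6, and without it Rpl36a passed with a log2 fold change of 0.46. Rpl7 was at 240, 228, and 206 in the controls, against 200, 234, and 206 with LNA Malat1 (-0.07). Rpl7l1, a paralog with a role in making the large subunit, was at 575, 550, and 526 and at 518, 512, and 504. Its groups did not overlap, at a log2 fold change of -0.10 (adjusted p = 0.16, limma).

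Rpl39 was at 130, 118, and 129 and at 117, 136, and 124 (0.00), Rps4x at 179, 176, and 164 and at 148, 167, and 153, and Rps27 at 30, 26, and 32 and at 30, 31, and 26 (-0.01). None of these 3 genes passed. Their copies Rpl39l and Rps4l, and Rpl10l, were not analysed here. Rps27rt was at 3, 0, and 3 and at 2, 5, and 4. The retrogene Rps23rg1 was at 15, 12, and 13 and at 19, 16, and 22 (log2 fold change 0.48, adjusted p = 0.18, limma), and Rpl10-ps3 at 12, 17, and 12 and at 11, 13, and 10 (-0.24, adjusted p = 0.56, limma). Rpl10-ps3 shared 96.0% of its stretches with other genes, so its few counts come from a small part of its sequence. Rps19bp1, the gene that encodes no ribosomal protein, was at 129, 142, and 125 and at 150, 135, and 122 (0.04).

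Summed over the 85 genes, the normalized counts were 15989, 16081, and 15173 in the controls and 15835, 16112, and 15230 with LNA Malat1. The libraries of the groups interleaved. As a share of each library these sums were 0.326%, 0.327%, and 0.314% in the controls and 0.332%, 0.338%, and 0.320% with LNA Malat1. The mean share was 0.322% for the controls and 0.330% with LNA Malat1, a difference of 0.0079 percentage points, against a standard deviation between replicates of 0.0083. The difference was 0.0038 without LNA Control replicate 3, 0.0039 without LNA Malat1 replicate 2, and 0.013 without LNA Malat1 replicate 3, and 0.0099 with LNA Malat1 replicates 1 and 3 as a single sample, so that it lay on either side of that deviation. The ratio of the summed large subunit genes to the summed small subunit genes was 1.40, 1.38, and 1.33 in the controls and 1.37, 1.34, and 1.34 with LNA Malat1. Of all 6 libraries, the first and second controls had the highest ratios.

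The replicates numbered 3 were low in both groups. Their sums were 94.6% and 95.3% of the mean of replicates 1 and 2 in LNA Control and LNA Malat1. In LNA Control replicate 3, 60 of the 83 genes lay below their own mean over the 6 libraries, and in LNA Malat1 replicate 3 it was 49. The median deviation from the own mean on the log2 scale was -0.004, 0.040, and -0.046 for the controls and 0.008, 0.037, and -0.046 with LNA Malat1. These 2 libraries also had the most reads on genes, 5593000 and 5301000 against 4513000 to 4986000, and the part of depth in this was not tested. Between libraries of the same number, the sum in LNA Malat1 was 99.0%, 100.2%, and 100.4% of that in LNA Control.

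**Figure D3:**
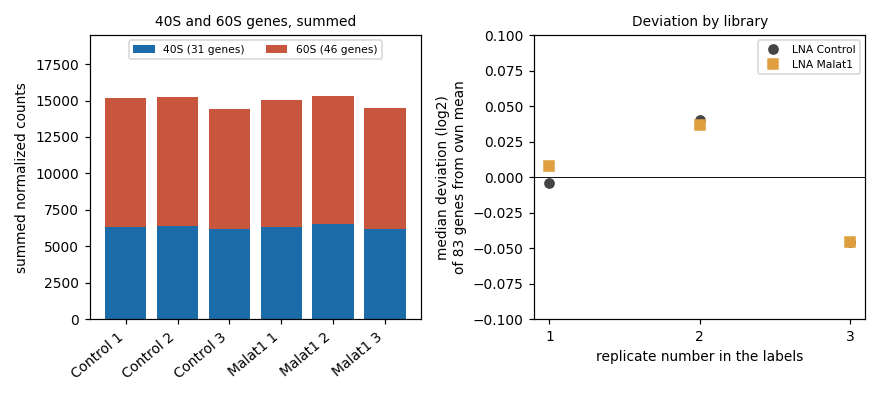
Left, summed normalized counts of the 31 small (40S) and 46 large (60S) subunit genes in each of the 6 libraries, stacked bars from 0. Right, the median log2 deviation of the 83 tested genes from their own mean over the 6 libraries, by the replicate number in the labels, near 0.04 in both libraries numbered 2 and at -0.046 in both numbered 3.

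Other genes of the ribosome and of translation were taken from lists chosen by function, with earlier results of these data known. The share of a list past the threshold therefore describes the list and does not test for an excess over all genes. Of the 77 genes of the mitochondrial ribosome, which translates the mRNAs of the mitochondrial genome and shares no gene with the cytosolic one, 9 fell and none rose past the adjusted p (11.7%, against 28.3% of all genes tested), and the median log2 fold change was -0.09. Mrps6 fell from 182, 179, and 199 normalized counts to 119, 118, and 119 (log2 fold change -0.65, SE 0.08, adjusted p = 7.7e-05, limma), and also passed the fold minimum. Mrps28 (-0.39), Mrpl32 (-0.32), and Mrps35 (-0.29) fell as well. In all 9 the groups did not overlap, as in 22 of the 77 (28.6%), against 41.3% of all genes.

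Another 6 genes linked to the ribosome lie outside the rule by name. Fau, which encodes a ribosomal protein fused to a ubiquitin-like protein, was at 133, 119, and 111 and at 131, 131, and 116, and its log2 fold change of 0.06 did not pass (adjusted p = 0.69, limma). Naca, a chaperone that binds the nascent chain at the tunnel exit, rose from 234, 204, and 208 to 287, 247, and 261 (log2 fold change 0.30, adjusted p = 0.013, limma). Rack1 (-0.11), Rps27l (0.12), and Btf3 (-0.03) did not pass. Naca was the only 1 of the 6 that passed (16.7%, against 28.3% of all genes tested). With LNA Malat1 replicates 1 and 3 as 1 sample, or without LNA Control replicate 2 or LNA Malat1 replicate 1, 0 of the 6 passed, and without LNA Control replicate 3 it was 2.

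Of 41 initiation factors 2 rose and 6 fell (19.5%, against 28.3% of all genes tested), with a median of -0.09. Eif4e2, a cap-binding protein that represses translation, fell from 817, 813, and 775 to 625, 582, and 577 (log2 fold change -0.43, adjusted p = 8.7e-05, limma). Eif2b3 (-0.40) and Eif2b5 (-0.34), subunits of the exchange factor for eIF2, also fell, and Eif3j1 rose (0.56). Leaving out LNA Control replicate 3, 15 passed, and leaving out LNA Control replicate 2, LNA Malat1 replicate 1, or LNA Malat1 replicate 3, it was 4. The number over all genes in these settings is not given here, so this shift cannot be read as particular to the list. Of 10 elongation factors and their regulators 1 fell (10.0%, against 28.3% of all genes tested). This was Eef2k, the kinase that inhibits eEF2, from 188, 213, and 195 to 99, 128, and 121 (log2 fold change -0.78, adjusted p = 0.00013, limma). Without LNA Control replicate 3 the number was 2. Eef1a1, whose mRNA also starts with the tract, was at 480, 495, and 414 and at 442, 468, and 435 (log2 fold change -0.04), and Eef2 at 2278, 2274, and 1881 and at 2037, 2083, and 1902 (-0.09). Neither differed past the threshold, and in both the third control library was low, as in Rpl4 and Rplp0.

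Of 74 genes for making ribosomes, 2 rose and 11 fell, so most did not pass, and the median log2 fold change was -0.02. Those that fell include Taf1b (-0.46) and Ubtf (-0.15), which serve transcription of ribosomal RNA genes, Polr1c (-0.38), a subunit of RNA polymerase I, and Heatr3 (-0.40), which helps carry Rpl5 into the nucleus. Brix1 (0.28) and Rrp1b (0.22) rose. The number past the threshold was 8 without LNA Malat1 replicate 1 or 3. In these 74 genes 17.6% passed, and in the 83 ribosomal protein genes 2.41%, against the background of 28.3% given above.

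**Figure D4:**
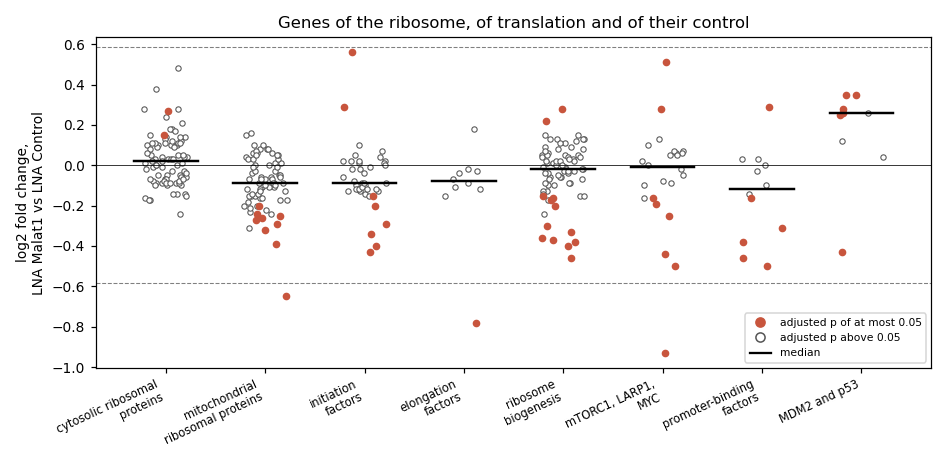
Log2 fold change of LNA Malat1 over LNA Control for each tested gene of 8 lists, 1 point per gene with random sideways shift, the median as a bar, and dashed lines at a 1.5-fold change. Filled red points passed an adjusted p of 0.05 in limma, 2 of 83 cytosolic and 9 of 77 mitochondrial ribosomal protein genes among them.

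The regulators that act on the tract and on growth were 24 tested genes of mTORC1, LARP1, and MYC, of which 2 rose and 6 fell (33.3%, against 28.3% of all genes tested, and so near the background). Rptor, the subunit that defines mTORC1, fell from 620, 539, and 527 to 375, 380, and 432 (log2 fold change -0.50, adjusted p = 0.00033, limma). Rps6kb1 (-0.25) and Eif4ebp1 (-0.19), targets of the kinase, fell too. The 2 genes that rose, Mxd4 (0.28) among them, reached up to 0.51. Mtor (0.06), Rheb (0.07), Mlst8 (-0.02), and Larp1 (-0.10) did not pass. Tia1 and Tial1, which bind the tract of stalled mRNAs under starvation, fell by 0.93 and 0.44 on the log2 scale, and Tia1 passed the fold minimum. The number past the threshold was 4 without LNA Malat1 replicate 2 and 5 without LNA Malat1 replicate 3. Among the ribosomal protein genes with a promoter entry, the 20 with a pyrimidine run over the start had a median log2 fold change of 0.06, from -0.16 to 0.48, and 1 of them, Rps24, passed. The 42 without such a run had a median of 0.00, from -0.17 to 0.28, and none passed.

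Factors known to bind promoters of ribosomal protein genes were also read, and their motifs were sought on both strands of the 300-base promoters. Of 12 factors 1 rose and 5 fell (50.0%, against 28.3% of all genes tested and 32.1% of those with a mean from 50 to below 1000). Because this short list was chosen with earlier results known, its share cannot be read as an excess. Gabpa, the DNA-binding part of GABP, fell from 1252, 1320, and 1279 to 919, 989, and 901 (log2 fold change -0.46, adjusted p = 6.1e-05, limma). Yy1 fell from 629, 706, and 631 to 454, 453, and 479 (log2 fold change -0.50, adjusted p = 6.1e-05, limma). Sp1 (-0.16), Nfya (-0.31), and Tbpl1 (-0.38) fell and Nfyb rose (0.29).

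The letters CCGGAAG, the core that GABP binds, were in 24 of the 64 ribosomal protein promoters (37.5%), in 20.3% of those of protein-coding genes tested, and in 9.93% of all promoters. The letters AAGATGGC of YY1 were in 6 of the 64 (9.38%), against 5.27% and 3.19%. The letters GGGCGG, which SP factors bind, were in 39 of the 64 (60.9%), against 69.0% and 38.2%. The pyrimidine motif CTCTTTC was in 18 of the 64 (28.1%), against 8.50% and 9.28%, and can overlap the run over the start. A match of letters describes the sequence and does not show that a factor binds there.

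The genes around free ribosomal proteins and p53 were the last list. MDM2 is the ligase of p53 that free Rpl5 and Rpl11 block. Of 9 genes 5 rose and 1 fell (66.7%, against 28.3% of all genes tested, or 14.3% counting only those that rose), with a median log2 fold change of 0.26. These 9 genes too were chosen with earlier results of these data known, so their share cannot be read as an excess. Mdm2, itself a target of p53, rose from 994, 927, and 896 to 1183, 1254, and 1146 (log2 fold change 0.35, adjusted p = 0.00076, limma). Cdkn1a rose from 396, 325, and 349 to 479, 449, and 432 (log2 fold change 0.35, adjusted p = 0.0038, limma), as did Trp53 (0.25), Sesn2 (0.28), and Zmat3 (0.26), while Sesn1 fell (-0.43). Rpl5 and Rpl11, whose values are given above, did not pass.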

How the data were processed

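RNA-seq of 6 HL-1 libraries was analysed, 3 per group, with groups and replicate numbers from the labels. Per the study's methods and the labels, the tools of the authors were Trimmomatic 0.39 for trimming, STAR 2.7.7a for alignment (mm10, Ensembl annotation), featureCounts 1.6.5 for exonic reads per gene, without reads on more than 1 gene or region, and DESeq2 1.30.0. What the authors deposited is a score, the counts after division by a library factor and rounding, so count models were not used on them. The table holds no columns of comparisons.

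Genes with a mean of at least 5 entered limma 3.58.1 under R 4.3.3 (lmFit, eBayes with trend) on log2(normalized count + 1), two-sided, with Benjamini-Hochberg adjustment over all of them. Fold changes on this scale understate those of low genes. The script was tested on simulated data. Library factors were recovered from the gaps rounding leaves (for LNA Malat1 replicate 2 with least certainty), and replicates were compared on the recovered reads, which covers counting error only. An exact permutation test of 3 against 3 libraries could not pass 0.05 and was not used.

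Positions are those of the table (mm10). Main mRNAs, lengths, and shared 75-base stretches come from GENCODE M21, where all 85 genes have the same coordinates. Promoters come from RefSeq (GRCm38.p6), matched by symbol for 64 genes and not for 21.

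The genes named in full were set by a rule: Malat1, Rplp0, Rplp1, Rplp2, Rps6, Rpl5, Rpl11, Rps27a, Rpsa, the paralog pairs, and those with the largest changes and the highest and lowest levels. Other members and list genes given with values were picked once their values had been seen. The members and lists were chosen with earlier results of these data known. Alternatives were pseudocounts of 0.1 and 5, 3 other scalings, a mean of at least 50 or no filter, a fold of 2, a replicate block, replicates 1 and 3 of LNA Malat1 as 1 sample, other denominators of the share, a regression on length, GC content, and level, and leaving out each library. Subsets of the members were chosen after seeing the data. Some of the genes are counted in the totals and not reported singly here.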

Additional observations from a re-analysis of the deposited data

How the results depend on the processing

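The number of ribosomal protein genes past the adjusted p and the fold minimum was 0 under every alternative run, and their median log2 fold change stayed between 0.00 and 0.05. The number higher past the adjusted p alone, 2 by the reported fit, was 1 with median-of-ratios scaling, 4 with library totals set equal, 1 with LNA Malat1 replicates 1 and 3 as 1 sample, and 1 among the genes sharing under 50% of their stretches, a subset chosen after seeing the data. When each library was left out it went from 0 to 3, and the number lower from 0 to 3. The difference in summed share went from 0.0038 to 0.013 percentage points when each library was left out.

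Of the lists, the 6 genes outside the rule gave 0 with LNA Malat1 replicates 1 and 3 as 1 sample and 0 to 2 when each library was left out. Elongation factors gave 2 with quantile normalization, with library totals set equal, and with a mean of at least 50, and 1 to 2 when each library was left out. With LNA Malat1 replicates 1 and 3 as 1 sample, initiation factors gave 4 and genes for making ribosomes 8. When each library was left out, initiation factors gave 4 to 15, genes for making ribosomes 8 to 15, and the mTORC1, LARP1, and MYC regulators 4 to 9. The cause was not tested. Counts over all genes in the same settings are not given beside these. The shifts therefore cannot be read as particular to the lists or to the ribosomal protein genes.

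The replicate block gave 2 genes higher, 0 lower, and a median of 0.02, and changed no call among the ribosomal protein genes. Libraries of the same number correlated, over 10490 genes after removal of the group means, by 0.0858, 0.1817, and 0.083, so the numbers were not taken as pairs, although 6 of 6 libraries correlated best with their own number, a hint from the data and not from the design. Over single genes and alternatives, 1232 of 1249 values kept their side of the threshold, 9 lost it, 8 gained it, and 0 changed direction past it. Genes with few counts, such as Rpl24 and the retrogenes, have intervals too wide to show a 1.5-fold change.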
